A study of Mus musculus with 19 samples.

Results

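The genes described here are the 8 core genes of the endocannabinoid system, chosen by name as the receptor and the enzymes that make and break down its ligands: Cnr1, Dagla, Daglb, Mgll, Abhd6, Abhd12, Napepld and Faah. All 8 were found among the 54232 genes counted in the striatum of 19 mice, and all 8 passed the filter on low counts together with 18521 genes in all. RNA was sequenced from the striatum of 6-month-old mice on the C57/BL/6 background in 4 groups: wild type (WT, n = 7), KI-FL (n = 4), KI-571 (n = 4) and KI-96 (n = 4). KI-FL mice carry an HD knock-in allele that gives full-length mutant Huntingtin with an expanded polyglutamine tract. KI-571 and KI-96 mice carry the same kind of allele cut short with CRISPR/Cas9. It encodes an N-terminal fragment of mutant Huntingtin, shorter in KI-96 than in KI-571. The study bred the fragment lines as heterozygotes, which keep a normal Htt allele, and the zygosity of the sequenced KI-FL mice is not given in the sources used here. The fragment lines descend from edited founders and the full-length line was bred apart from them, so line and form of Huntingtin cannot be told apart. The comparisons ask whether mutant Huntingtin of each encoded length goes with a difference from WT in the striatum. These RNA counts do not measure the size of the protein present.

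Endocannabinoids are lipid messengers that neurons make on demand from membrane lipids. They travel backwards across the synapse to the CB1 receptor on the incoming terminal and lower transmitter release. The striatum is known as a site of dense CB1 expression, on the terminals of its own projection neurons and of cortical inputs, and loss of striatal CB1 is a known feature of Huntington disease. The main ligand in brain, 2-arachidonoylglycerol (2-AG), is made by diacylglycerol lipases and hydrolysed by monoacylglycerol lipase and the ABHD enzymes. The second ligand, anandamide, has its own route of synthesis and is broken down by fatty acid amide hydrolase.

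Reads assigned to genes ranged from 12669809 to 26388542 per mouse, and members were counted with 85 (Napepld) to 6921 (Cnr1) reads per mouse. WT replicates 5 to 7 had 23457270 to 26388542 reads in genes, against 17281603 to 18945441 in WT replicates 1 to 4. Whether these sets of WT mice differ by a batch was not tested. Htt, the targeted gene, stood at 168 to 195 counts per 1000000 counts in genes (CPM) in WT, 143 to 240 in KI-96, 104 to 141 in KI-571 and 137 to 179 in KI-FL. Its fold against WT was 1.04, 0.694 and 0.884 in KI-96, in KI-571 and in KI-FL, with edgeR adjusted p of 0.942, 0.0959 and 0.431. KI-571 and WT did not overlap for Htt, as for 1.55% of all genes. The total level of Htt cannot tell mutant from normal alleles. All 12 genes of a list of striatal projection neuron markers were above 3 counts in every mouse, and their sum ranged from 5712 to 9614 CPM. Interneuron markers summed to 136 to 492 CPM, oligodendrocyte markers to 8818 to 15321, microglia markers to 295 to 496 and endothelial markers to 83.9 to 175, with overlap between genotypes. Astrocyte markers summed to 1642 to 2020 CPM in WT, 1295 to 2103 in KI-96, 1776 to 2018 in KI-571 and 1638 to 1694 in KI-FL, so KI-FL did not overlap KI-571 and lay below 6 of the 7 WT mice. The part of this in the KI-FL values below was not tested. Several mice stood apart. Choroid plexus markers summed to 5093 CPM in KI-571 replicate 2, 5341 in KI-571 replicate 4 and 3026 in KI-FL replicate 1, against 36.4 to 410 in the other mice. KI-96 replicate 3 had 24.2% of reads outside genes, against at most 15.99% elsewhere, and the lowest interneuron, astrocyte, oligodendrocyte and microglia sums of the 19 mice. WT replicate 3 had 1139 CPM over 9 cortical neuron markers, against 69.1 to 125 in the other WT mice, and KI-FL replicate 4 had 16384 genes detected, fewer than the 23177 to 23950 of KI-FL replicates 1 to 3, with Emx1 and Neurod6 of the cortical list at 0. Xist, which is expressed from the inactive X chromosome, was above 800 CPM in all 4 KI-96 mice, in 1 of 7 WT mice, in 1 of 4 KI-FL mice and in 0 of 4 KI-571 mice, so sex and the KI-96 genotype cannot be told apart in most of these mice.

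No member passed the test across all genes in any KI genotype against WT. With edgeR's quasi-likelihood test and the Benjamini-Hochberg adjustment over 18521 genes, 0 of 8 members passed an adjusted p of 0.05 in KI-96, where 0.027% of all genes passed, 0 of 8 in KI-571 (0.0324% of all genes) and 0 of 8 in KI-FL (0.194% of all genes). At an unadjusted p of 0.05 the counts were again 0 of 8 in each, where 7.45%, 7.72% and 16.7% of all genes passed. DESeq2 called 0 of 8 at the adjusted threshold in each comparison as well. At an unadjusted p of 0.05 DESeq2 had 1 of 8 in KI-FL, where 3439 genes passed, and 0 in KI-96 and in KI-571. The levels of every member overlapped between each KI genotype and WT, while 1.24%, 1.55% and 5.29% of all genes had groups that did not overlap in KI-96, in KI-571 and in KI-FL. Over the 24 comparisons of a member with WT, log2 fold changes (base 2 logarithms of the ratio of fitted levels, KI over WT) ran from -0.26 to 0.19, or folds of 0.833 to 1.14. The 95% intervals, which were not widened for the number of genes, differed in width between members: over the 3 KI genotypes they ran from a fold of 0.585 to 1.44 for Cnr1 and from 0.929 to 1.29 for Abhd12. The median log2 fold change over the 8 members was -0.0042, -0.031 and -0.073 in KI-96, in KI-571 and in KI-FL, beside -0.015, -0.0089 and -0.028 over all genes tested. In bulk tissue, fewer cells of a type and less RNA per cell cannot be told apart.

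**Figure D1:**
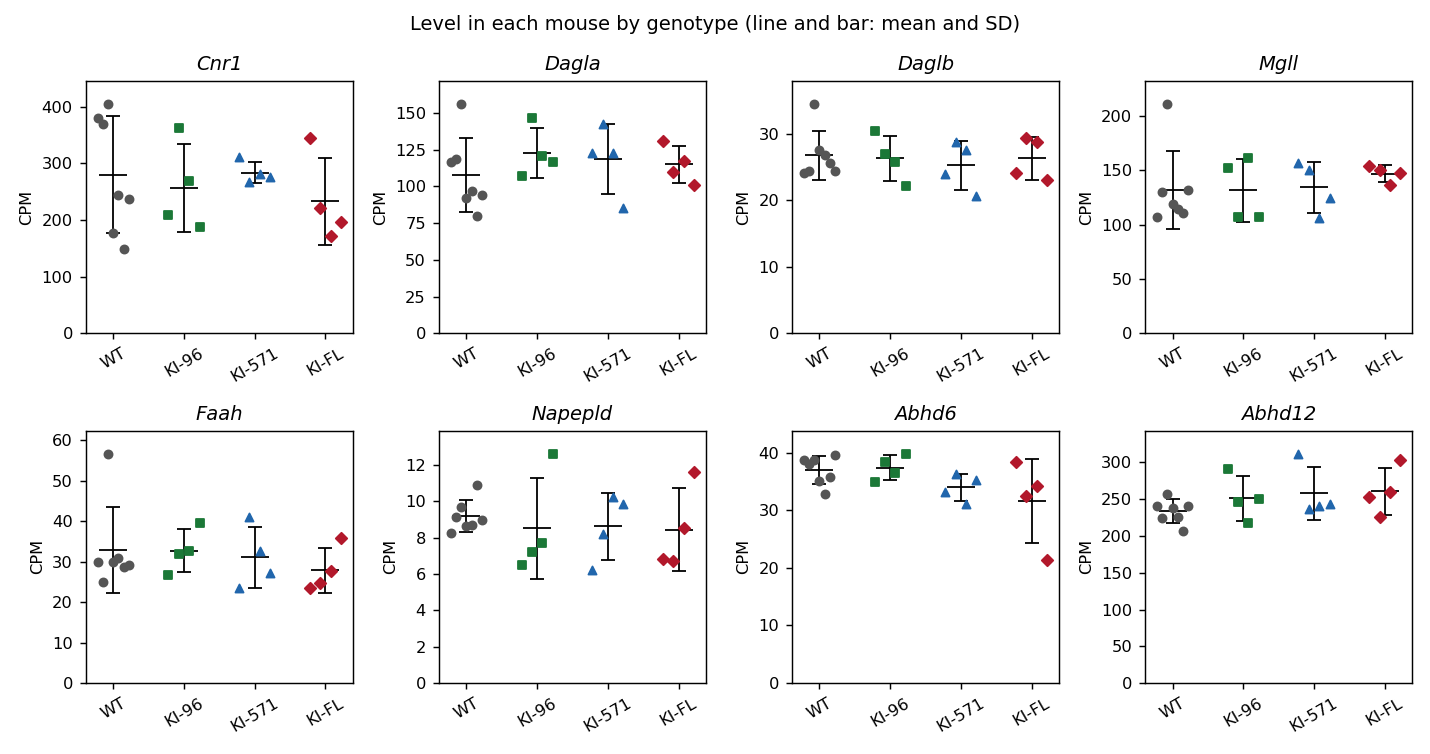
Level of each member in CPM (vertical axis, from 0) in each of the 19 mice by genotype, with 1 point per mouse and the mean and SD as a line and bar. The genotypes overlap for all 8 genes, and in WT the highest point for Cnr1, Dagla, Daglb, Mgll, Faah and Abhd12 is replicate 3.

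Before the members are taken in turn, their order in WT sets the scale. Levels of different genes were compared as CPM per kilobase of exon (RPKM), since a longer transcript collects more reads. Abhd12 was highest at 82.8 ± 5.70 RPKM (SD, n = 7), followed by Cnr1 at 43.4 ± 16.1, Mgll at 26.0 ± 7.09, Dagla at 18.8 ± 4.43 and Abhd6 at 15.6 ± 1.03. Faah at 4.20 ± 1.36, Daglb at 2.80 ± 0.382 and Napepld at 2.32 ± 0.223 formed the low end. The WT ranges did not overlap between Abhd12 and Cnr1 or between Abhd6 and Faah, and they overlapped between every other pair of neighbours in this order. Within the same mouse the order held more often: Cnr1 was above Mgll in 7 of 7 WT mice, Mgll above Dagla in 7 of 7 and Dagla above Abhd6 in 5 of 7. By this length the order of the means was the same in KI-96, in KI-571 and in KI-FL. Of the diacylglycerol lipases Dagla was thus the higher and of the 2-AG hydrolases Abhd12, per exon length. When the longest transcript replaced the joined exons as the length, the order of the WT means stayed and Daglb rose to 5.50 RPKM, next to Faah at 5.94, while in KI-FL Daglb at 5.40 stood above Faah at 5.04.

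**Figure D2:**
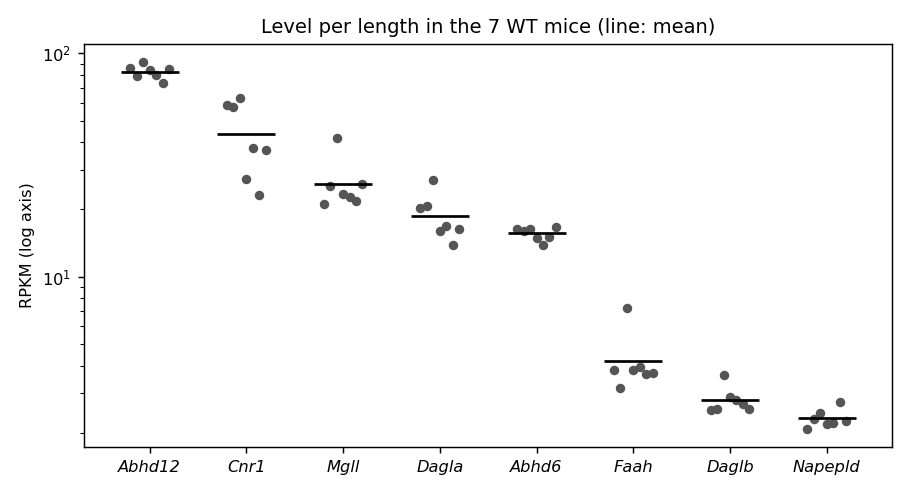
Level per length in RPKM (vertical log axis) of the 8 members in the 7 WT mice, with 1 point per mouse and the mean as a line, ordered by mean. Abhd12 lies above all other members in every mouse, and Faah, Daglb and Napepld lie below Abhd6 in every mouse.

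Cnr1 (ENSMUSG00000044288.6, GRCm38 chr4:33924593-33948831, plus strand) encodes the CB1 receptor. In WT it ranged from 149 CPM in replicate 6 through a median of 243 to 405 in replicate 3. Replicates 1 to 3 stood at 380, 370 and 405 CPM, while replicates 4 to 7 stood at 176, 243, 149 and 237, so the WT group held both the lowest and the highest values of the 19 mice, a 2.71-fold span. In KI-96 replicates 1 to 4 had 209, 361, 269 and 188 CPM, in KI-571 310, 267, 281 and 275, and in KI-FL 344, 221, 172 and 196. Every KI mouse lay inside the WT range, and KI-571 was the least spread group. The means were 280 ± 104 in WT, 257 ± 77.7 in KI-96, 283 ± 18.96 in KI-571 and 233 ± 76.8 in KI-FL (SD, n = 7, 4, 4 and 4). The log2 fold change against WT was -0.12 ± 0.24 (SE) in KI-96, 0.019 ± 0.24 in KI-571 and -0.26 ± 0.25 in KI-FL, with adjusted p of 0.943, 0.998 and 0.605 from edgeR. The direction in KI-FL turned with the WT mice it was set against: it was -0.52 with WT replicates 1 to 4 alone (adjusted p = 0.589) and 0.15 with WT replicates 5 to 7 alone (adjusted p = 0.800). The KI-FL interval ran from -0.77 to 0.25, so a fall to 0.585 of the WT level was within it.

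The level of Cnr1 moved with striatal projection neuron markers from mouse to mouse. Over the 19 mice, log2 CPM of Cnr1 and of the summed marker list had a Pearson r of 0.654 (permutation p = 0.00257, adjusted 0.0377 over 44 relations) and a Spearman rho of 0.632 (permutation p = 0.00458, adjusted 0.101). Without the 2 mice farthest from the median marker sum, WT replicate 2 and KI-96 replicate 4, r was 0.579, and r over deviations from the genotype means was 0.705. Among the WT mice the marker sum was 8527, 9614 and 7392 CPM in replicates 1 to 3 and 6704, 7383, 6107 and 7775 in replicates 4 to 7. Both measures come from the same library, so the permutation p cannot show a tie particular to Cnr1. The share of all genes tested with such an r was not computed. The part of dissection or cell makeup in the Cnr1 levels was not tested.

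Dagla (ENSMUSG00000035735.10, chr19:10245265-10304877, minus strand) encodes diacylglycerol lipase alpha, the main enzyme of 2-AG synthesis in adult brain. WT mice ranged from 79.6 CPM in replicate 6 through a median of 97.2 to 156 in replicate 3. KI-96 mice had 107, 147, 121 and 116 CPM, KI-571 mice 123, 143, 123 and 85.3, and KI-FL mice 131, 110, 118 and 101. Of the 12 KI mice, 11 lay above the WT median and all lay inside the WT range. Means were 108 ± 25.4 in WT, 123 ± 17.0 in KI-96, 118 ± 24.0 in KI-571 and 115 ± 12.8 in KI-FL. The log2 fold change was 0.19 ± 0.15 in KI-96, 0.14 ± 0.15 in KI-571 and 0.094 ± 0.15 in KI-FL, and none passed (edgeR adjusted p of 0.815, 0.948 and 0.780). Without WT replicate 3, the highest Dagla mouse, the KI-96 value was 0.30 with an adjusted p of 0.645. Against WT replicates 5 to 7 alone the KI-FL value was 0.35 (adjusted p = 0.323), and against WT replicates 1 to 4 alone it was -0.081 (adjusted p = 0.905).

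Cnr1 and Dagla, receptor and synthesis enzyme, had the highest correlation of the 28 pairs of members. Over the 19 mice r was 0.659 (permutation p = 0.00237, adjusted 0.0377 over 44 relations) and rho was 0.656 (permutation p = 0.00291, adjusted 0.101). Without KI-571 replicate 4 and WT replicate 6, the mice farthest from the median of Dagla, r was 0.663. Over deviations from the genotype means it was 0.739. WT replicates 1 to 3 were the highest of their group in both genes, and WT replicate 6 was the lowest in both. Both genes were read from the same libraries, so the permutation p cannot set a tie of these genes apart from shared dissection or cell makeup, which was not tested. Dagla had a higher r with other genes, such as 0.930 with Camta2.

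**Figure D3:**
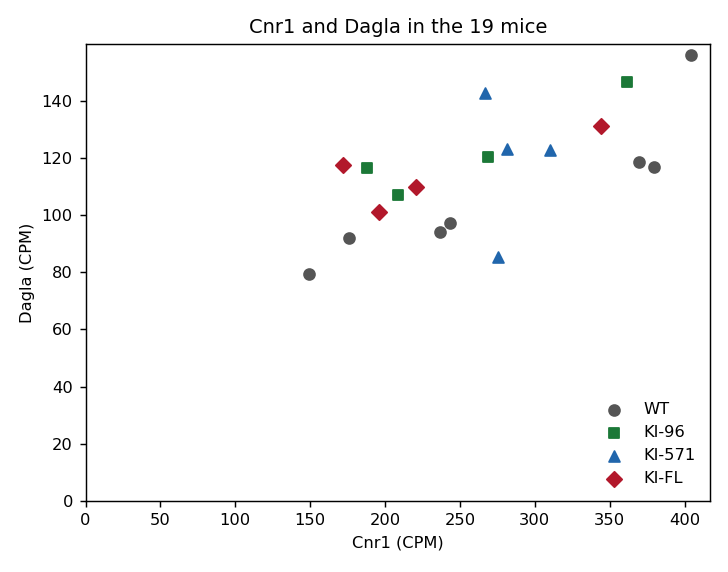
Dagla against Cnr1, both in CPM on axes from 0, with 1 point per mouse and colour and shape by genotype. Mice with more Cnr1 tend to have more Dagla (r = 0.659 on the log2 scale over 19 mice). The genotypes overlap, with WT mice at both ends of the Cnr1 range and KI-571 mice near its middle.

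Daglb (ENSMUSG00000039206.13, chr5:143464584-143505942, plus strand) encodes diacylglycerol lipase beta, best known from microglia. Its counts are uncertain, because 24.1% of its exon bases are shared with Rac1 on the opposite strand and it is not stated whether the counting used strand. WT mice ranged from 24.1 CPM through a median of 25.7 to 34.5 in replicate 3. KI-96 mice had 30.4, 26.9, 25.8 and 22.1 CPM, KI-571 mice 24.0, 28.9, 27.6 and 20.7, and KI-FL mice 24.1, 29.5, 28.8 and 23.0. The groups overlapped almost wholly, with means of 26.8 ± 3.66, 26.3 ± 3.43, 25.3 ± 3.68 and 26.3 ± 3.25 in WT, in KI-96, in KI-571 and in KI-FL. Log2 fold changes were -0.028 ± 0.12, -0.084 ± 0.12 and -0.024 ± 0.12 in KI-96, in KI-571 and in KI-FL, with edgeR adjusted p of 0.977, 0.962 and 0.935. All intervals for Daglb lay between -0.34 and 0.23, or folds of 0.791 to 1.17.

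Mgll (ENSMUSG00000033174.17, chr6:88724412-88828360, plus strand) encodes monoacylglycerol lipase, which carries out most 2-AG hydrolysis in brain and is found at presynaptic terminals and in glia. An antisense gene, Gm26588, shares 3.3% of its exon bases. WT mice ranged from 107 CPM in replicate 1 through a median of 119 to 211 in replicate 3, and the other WT mice reached no higher than 132. KI-96 mice had 152, 107, 161 and 107 CPM, KI-571 mice 157, 151, 106 and 124, and KI-FL mice 154, 150, 136 and 147. All 4 KI-FL mice were above 6 of the 7 WT mice, and WT replicate 3 was above all of them. Means were 132 ± 36.0 in WT, 132 ± 29.1 in KI-96, 135 ± 23.4 in KI-571 and 147 ± 7.64 in KI-FL. Log2 fold changes were -0.0062 ± 0.16, 0.026 ± 0.16 and 0.15 ± 0.16 in KI-96, in KI-571 and in KI-FL (edgeR adjusted p of 0.996, 0.998 and 0.653). Without WT replicate 3 the KI-FL value was 0.29, with an unadjusted p of 0.0278 and an adjusted p of 0.240 from edgeR. Such an unadjusted p was common in KI-FL: with all mice kept, 16.7% of all genes had one under 0.05. The KI-96 value without WT replicate 3 was 0.14 (adjusted p = 0.828). Mgll did not pass with or without that mouse.

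Abhd6 (ENSMUSG00000025277.14, chr14:8002902-8056763, plus strand) encodes a membrane hydrolase that acts on 2-AG in postsynaptic neurons. It was one of the steadiest members in WT, from 32.9 CPM through a median of 38.1 to 39.5. KI-96 mice had 35.0, 38.3, 36.5 and 39.8 CPM and KI-571 mice 33.2, 36.4, 31.1 and 35.2. KI-FL mice had 38.4, 32.5, 34.2 and 21.3, with the last in replicate 4, the mouse with fewer genes detected. The other 18 mice all lay above that value. Means were 37.0 ± 2.43 in WT, 37.4 ± 2.12 in KI-96, 34.0 ± 2.30 in KI-571 and 31.6 ± 7.27 in KI-FL. The log2 fold change was 0.018 ± 0.11 in KI-96, -0.12 ± 0.11 in KI-571 and -0.23 ± 0.12 in KI-FL, with edgeR adjusted p of 0.984, 0.926 and 0.328. The KI-FL value had the smallest p of all members against WT (unadjusted 0.0639). Without KI-FL replicate 4 it was -0.078 with an adjusted p of 0.737, while without KI-FL replicate 1, the highest KI-FL mouse, it was -0.34 with an adjusted p of 0.172.

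Abhd12 (ENSMUSG00000032046.15, chr2:150832493-150904741, minus strand) encodes a hydrolase of 2-AG and of lysophosphatidylserine, known from microglia. WT mice ranged from 207 CPM through a median of 239 to 257. KI-96 mice had 291, 246, 217 and 250 CPM, KI-571 mice 312, 237, 241 and 244, and KI-FL mice 253, 227, 260 and 304. In each KI genotype 1 or more mice were above the highest WT mouse and 1 or more were below the WT median. Means were 234 ± 16.1 in WT, 251 ± 30.2 in KI-96, 258 ± 35.9 in KI-571 and 261 ± 32.1 in KI-FL. Log2 fold changes were 0.10 ± 0.10, 0.14 ± 0.10 and 0.16 ± 0.10, and none passed (edgeR adjusted p of 0.861, 0.833 and 0.434). With all 12 KI mice pooled against WT, Abhd12 had the smallest p of the 8 members, at 0.14 ± 0.077 with an adjusted p of 0.473.

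Napepld (ENSMUSG00000044968.16, chr5:21662901-21701396, minus strand) encodes the phospholipase D that releases anandamide and related N-acylethanolamines. It was the lowest member in CPM, from 8.26 through a median of 8.97 to 10.9 in WT. KI-96 mice had 6.49, 7.19, 7.70 and 12.6 CPM, KI-571 mice 6.20, 8.21, 10.2 and 9.83, and KI-FL mice 6.84, 6.73, 8.54 and 11.6. KI mice fell on both sides of the WT range, with more of them below it. Below the lowest WT mouse were KI-96 replicates 1 to 3, KI-571 replicates 1 and 2 and KI-FL replicates 1 and 2. Above the highest were KI-96 replicate 4 and KI-FL replicate 4. Means were 9.18 ± 0.880 in WT, 8.50 ± 2.79 in KI-96, 8.62 ± 1.84 in KI-571 and 8.43 ± 2.28 in KI-FL. Log2 fold changes were -0.10 ± 0.19, -0.093 ± 0.19 and -0.12 ± 0.19, with edgeR adjusted p of 0.939, 0.980 and 0.774.

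Faah (ENSMUSG00000034171.13, chr4:115967145-116017926, minus strand) encodes fatty acid amide hydrolase, which ends the action of anandamide. WT mice ranged from 25.0 CPM in replicate 2 through a median of 29.9 to 56.7 in replicate 3, and the other WT mice did not exceed 31.0. KI-96 mice had 26.7, 32.0, 32.7 and 39.7 CPM, KI-571 mice 23.5, 40.9, 32.8 and 27.2, and KI-FL mice 23.5, 24.7, 27.7 and 35.8. In each KI genotype the highest mouse lay between WT replicate 3 and the other WT mice, and all KI groups were spread more widely than those 6. Means were 32.9 ± 10.7 in WT, 32.8 ± 5.33 in KI-96, 31.1 ± 7.57 in KI-571 and 27.9 ± 5.55 in KI-FL. Log2 fold changes were -0.0023 ± 0.19, -0.080 ± 0.19 and -0.23 ± 0.19 in KI-96, in KI-571 and in KI-FL (edgeR adjusted p of 0.998, 0.983 and 0.551). Without WT replicate 3 these became 0.18, 0.10 and -0.061, with adjusted p of 0.811 in KI-96 and 0.853 in KI-FL.

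**Figure D4:**
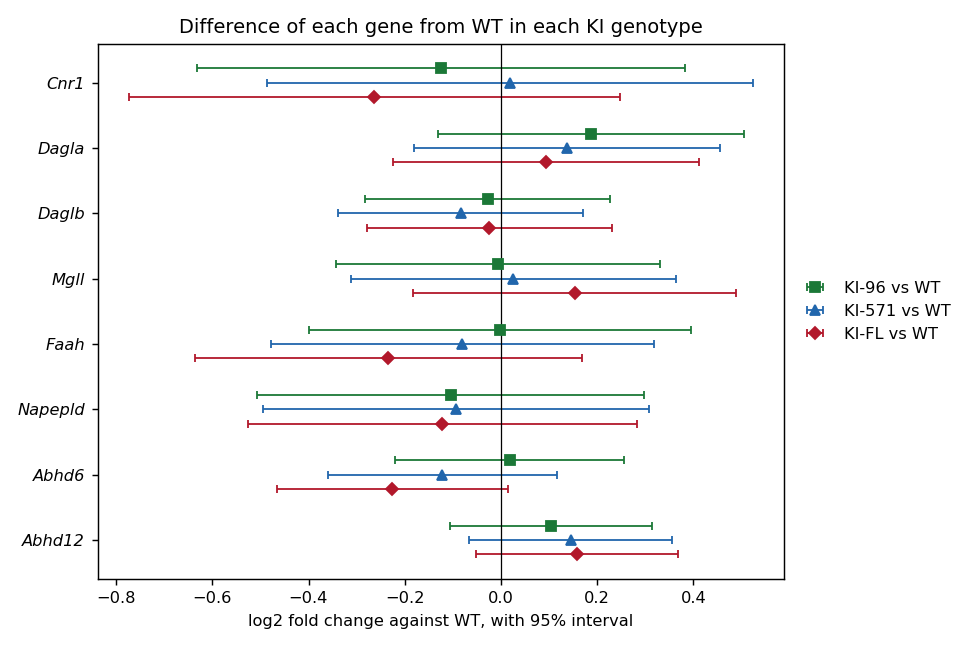
Log2 fold change against WT (horizontal axis) of each member in KI-96, in KI-571 and in KI-FL, with the 95% interval of the edgeR fit as a bar. All 24 intervals include 0, and those of Cnr1 are the widest.

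WT replicate 3, with the most Faah and Mgll, was also the mouse with the most cortical neuron marker RNA. The 9 cortical genes are markers of pyramidal neurons, which the striatum should lack. The second highest cortical sum, 489 CPM, was in KI-571 replicate 2, which had the highest Faah of its group at 40.9 CPM against 23.5 to 32.8 in the other KI-571 mice. In KI-96 the highest cortical sum, 181 CPM in replicate 4, also went with the highest Faah of the group at 39.7 CPM, and in KI-FL replicate 3, with 172 CPM, Faah was second of 4. In these same mice Mgll was second of 4 in KI-571 (151 CPM) and the lowest of 4 in KI-96 (107 CPM) and in KI-FL (136 CPM). Over the 19 mice log2 CPM of Faah and of the cortical sum had r = 0.776 (permutation p = 0.00086, adjusted 0.0377 over 44 relations) and rho = 0.444 (permutation p = 0.0576, adjusted 0.493). Without WT replicate 3 and KI-571 replicate 2, r was 0.272, so the relation rested on those 2 mice. For Mgll r was 0.555 (permutation p = 0.0163, adjusted 0.143), rho was 0.235 (permutation p = 0.331, adjusted 0.619), and r was 0.0024 without them. Dagla was also highest in its group in those mice, at 156 CPM in WT replicate 3 and 143 in KI-571 replicate 2. Its r with the cortical sum was 0.572 (permutation p = 0.00879, adjusted 0.0967), its rho 0.416 (permutation p = 0.0778, adjusted 0.493), and r was 0.206 without them. Whether cortical tissue contributed to these levels was not tested.

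**Figure D5:**
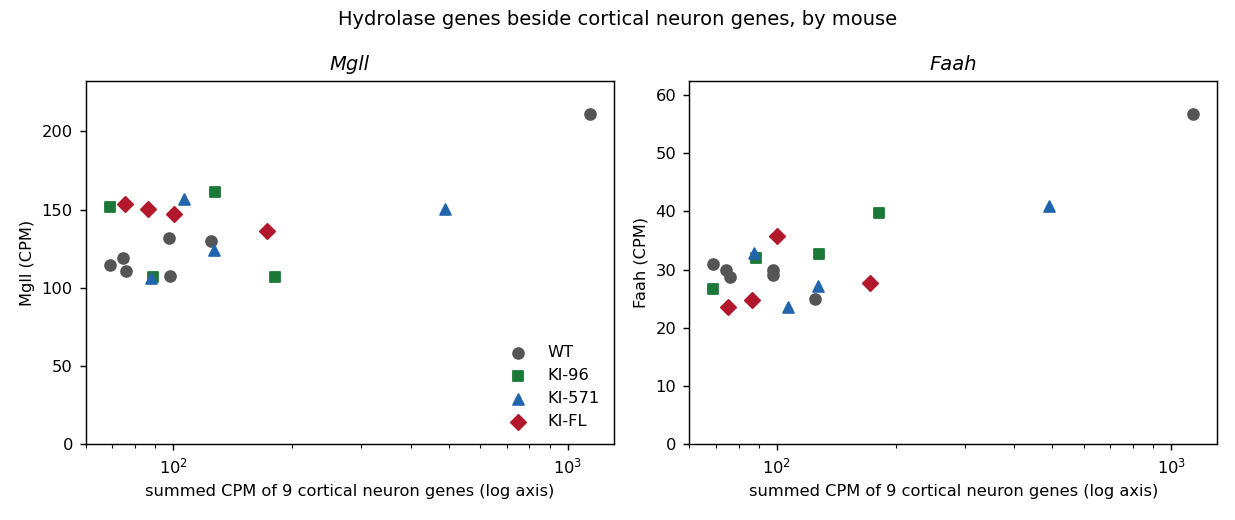
Mgll (left) and Faah (right) in CPM against the summed CPM of 9 cortical neuron markers (horizontal log axis), 1 point per mouse, colour and shape by genotype. WT replicate 3, at 1139 CPM, is the highest in both panels, and without it and KI-571 replicate 2 r was 0.272 for Faah and 0.0024 for Mgll.

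The KI genotypes were also compared with each other. Of the 8 members, 0 passed in KI-96 against KI-FL (0% of all genes passed), 0 in KI-571 against KI-FL (0.0864%) and 0 in KI-96 against KI-571 (0.0054%), by edgeR with Benjamini-Hochberg adjustment. At an unadjusted p of 0.05 the counts were also 0 of 8 in each, where 8.9%, 8.9% and 5.51% of all genes passed. DESeq2 called 0 at the adjusted threshold. The widest member difference was that of Cnr1 in KI-571 over KI-FL, 0.28 ± 0.28 with an adjusted p of 0.776. Abhd6 in KI-96 over KI-FL had the smallest p, at 0.24 ± 0.13 with an adjusted p of 0.599. With all KI mice pooled against WT, 0 of 8 members passed, where 0.054% of all genes did, and DESeq2 called 0 as well. At an unadjusted p of 0.05 by edgeR 0 of 8 passed, against 12.9% of all genes.

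The balance of enzyme transcripts within a mouse was described by log2 ratios of CPM. These are not corrected for length, serve to compare mice and do not measure enzyme activity. The ratio of Dagla to Daglb was 1.99 ± 0.264 in WT, 2.22 ± 0.287 in KI-96, 2.22 ± 0.144 in KI-571 and 2.13 ± 0.233 in KI-FL. For Mgll over Dagla, transcripts of a 2-AG hydrolase and a 2-AG synthesis enzyme, the means were 0.29 ± 0.224, 0.085 ± 0.458, 0.19 ± 0.328 and 0.36 ± 0.165 in the same order. This ratio leaves out Abhd6 and Abhd12. For Mgll over Abhd6 they were 1.80 ± 0.305, 1.79 ± 0.395, 1.97 ± 0.214 and 2.25 ± 0.373, with KI-FL replicate 4 highest at 2.79. For Faah over Napepld, transcripts of an anandamide breakdown and a synthesis enzyme, they were 1.80 ± 0.380, 1.98 ± 0.225, 1.85 ± 0.365 and 1.74 ± 0.108. The ranges of the genotypes overlapped in all of these. For Mgll over Abhd6 the overlap of WT and KI-FL rested on WT replicate 3, at 2.45: the other 6 WT mice lay at 1.47 to 1.80 and the 4 KI-FL mice at 1.99 to 2.79. That mouse was set aside after the values were seen, and how often other ratios part in this way was not tested. With all WT mice kept, 5.29% of all genes did not overlap between KI-FL and WT. KI-FL replicate 4, at 2.79, also had the lowest Abhd6 of the 19 mice, 21.3 CPM.

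The members differed in how much they varied between mice of a genotype. The pooled SD of log2 CPM within genotypes was 0.45 for Cnr1, above that of 65.8% of genes tested, 0.33 for Faah, 0.30 for Napepld, 0.28 for Mgll and 0.27 for Dagla. Daglb at 0.19, Abhd6 at 0.18 and Abhd12 at 0.15 were the steadiest, with Abhd12 above 12.2% of genes tested. The median over all genes tested was 0.30. The intervals against WT were likewise widest for Cnr1 and narrowest for Abhd12.

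For each member the 3 tested genes with the most similar log2 CPM across the 19 mice were taken as a description. Cnr1 was most like Hipk4 (Pearson r = 0.916), Lrrc10b (0.863) and Gpr139 (0.854). Dagla was most like Camta2 (0.930), Rbfox3 (0.928), which encodes the neuronal marker NeuN, and Dab2ip (0.927). Mgll was most like the synaptic vesicle gene Sv2b (0.930), Mtmr12 (0.852) and Dclk1 (0.846), and Faah was most like Cdh24 (0.887), Olfm1 (0.881) and Nr2f1 (0.871). Daglb was closest to Gm9899 (0.802), Slc36a1 (0.793) and Rap1gap2 (0.777), and Napepld to Rhpn1 (0.840), Dusp15 (0.831) and Gm37313 (0.819). Abhd12 was closest to Eif3h (0.905), Cops6 (0.901) and Bag1 (0.895). Abhd6 was closest to Hspa1l (0.934), Degs2 (0.922) and Col14a1 (0.913), and 0 of these 3 genes remained among its closest without KI-FL replicate 4. For Dagla and Mgll 3 of 3 remained without that mouse, for Cnr1, Daglb and Abhd12 2, and for Faah and Napepld 1. The points share the same 19 libraries with their depth and composition, and the genes were the highest of 18521 ranked.

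A wider list of 25 genes around the system was counted in the same fits, and 23 of them passed the filter on low counts. None of the 23 passed the adjusted threshold against WT by edgeR. At an unadjusted p of 0.05, 1 of 23 passed in KI-96 (7.45% of all genes), 3 in KI-571 (7.72%) and 5 in KI-FL (16.7%). The 1 in KI-96 was Pla2g4e, the calcium-dependent N-acyltransferase that makes the anandamide precursor. In KI-571 the 3 were Pla2g4e, Naaa and Ptgs2, and in KI-FL the 5 were Pla2g4e, Plcb4, Gpr55, Ptgs2 and Fabp3. These lists were read out after their values were seen. Pla2g4e stood at 6.77 ± 4.996 CPM in WT, with WT replicate 3 highest at 16.9, and at 2.60 ± 0.724 in KI-96, 2.77 ± 1.02 in KI-571 and 2.53 ± 2.28 in KI-FL. Its log2 fold change was -1.38, -1.29 and -1.41 against the same WT mice, with edgeR adjusted p of 0.629, 0.530 and 0.198.

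Among other receptors, Cnr2, the CB2 receptor of immune cells, was below the filter with 2 to 14 counts in the KI-96, KI-571 and WT mice and up to 42 in KI-FL replicate 4. Trpv1, a cation channel that anandamide opens, had at most 6 counts in any mouse and 0 in all 4 KI-FL mice, which allows up to 3 counts each. Gpr55 stood at 3.72 ± 0.577 CPM in WT and 6.41 ± 4.82 in KI-FL, where replicate 4 had 13.6, and its log2 fold change there was 0.78 with an adjusted p of 0.201 from edgeR. Neither of the proteins that bind CB1 passed in any KI genotype: Cnrip1 was at 15.5 ± 2.40 CPM in WT and 13.7 to 13.9 in the KI means, and Sgip1 was at 167 ± 14.1 in WT and 161 to 181 in the KI means.

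Upstream of Dagla, the glutamate receptor Grm5 and phospholipase Plcb1 supply diacylglycerol in projection neurons. Grm5 was 374 ± 46.5 CPM in WT, 395 ± 108 in KI-96, 320 ± 56.6 in KI-571 and 370 ± 19.2 in KI-FL, and Plcb1 was 296 ± 33.8, 325 ± 70.9, 298 ± 62.6 and 309 ± 22.3. Neither passed in any genotype. Abhd4 and Gde1, of the alternative route to anandamide, differed from WT by log2 fold changes of -0.12 to 0.081, and neither passed. Naaa, a lysosomal amidase for N-acylethanolamines, was 33.2 ± 2.30 CPM in WT and 39.4 ± 6.60 in KI-571 (log2 fold change 0.25, edgeR adjusted p = 0.544). Ptgs2, which encodes the cyclooxygenase COX-2 that can oxidise 2-AG, was low, at 1.46 ± 0.851 CPM in WT, 1.80 ± 0.439 in KI-96, 3.20 ± 1.05 in KI-571 and 2.61 ± 0.644 in KI-FL. Its log2 fold change was 1.14 in KI-571 (adjusted p = 0.269) and 0.84 in KI-FL (adjusted p = 0.226) by edgeR. The lipid carriers Fabp5 and Fabp7 lay between -0.28 and 0.38 on the log2 scale against WT, and neither passed. Fabp3, another carrier, was 24.8 ± 4.39 CPM in WT and 36.2 ± 2.88 in KI-FL, with a log2 fold change of 0.55 ± 0.17 and an edgeR adjusted p of 0.135, the smallest of the wider list in KI-FL.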

How the data were processed

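Striatal RNA of 19 mice was sequenced. Per the study's methods and the submitters' processing notes, the authors trimmed adapters with BBduk, dropped reads under 100 bases, aligned to GRCm38 with STAR and counted reads per gene with HTSeq. The deposited values are raw counts per gene, not normalized; the strand setting is not given in the sources used here. Columns of no sample (4, which the submitters ask to disregard) and 5 lines that name no gene were left out; reads without a feature were 11.1% to 24.2% per library. Total gene counts were 12669809 to 26388542, a 2.08-fold span in depth. Groups came from the sample titles. The titles number 7 WT libraries, more than the methods state per genotype, so p-values measure the spread between these libraries. The authors dropped a WT sample that the sources used here do not name, and all 7 were kept. Libraries of a group differed by at least 8.56 times counting noise (chi-square per degree of freedom, 39 pairs). None was thus counted as a repeat of the same library. That check cannot tell libraries of the same mouse from libraries of different mice, and each library is called a mouse here.

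Genes were matched by Ensembl identifier to GENCODE release 21 (54079 of 54232 with a symbol). Genes passing edgeR's filterByExpr (minimum count 10) were scaled by TMM and tested with the quasi-likelihood F-test in edgeR 4.0.16 (R 4.3.3) over all 4 groups, with Benjamini-Hochberg adjustment over 18521 genes and a threshold of 0.05. DESeq2 1.42.0, which the authors used with a batch term that the labels do not give, was an alternative, beside other scaling, filters, groups of mice, an Xist term, a replicate block and leaving out each mouse. CPM used TMM-scaled totals; log2 CPM added a prior count of 2. Relations across mice used 100000 permutations, two-sided. The 44 relations computed were the pairs of members, and each member against the striatal projection neuron and cortical neuron sums. No relation was computed with the other marker lists, nor was the share of all genes tested with such an r. Scripts were tested on simulated data. Members and lists were chosen with earlier results of these data known. The text names the 8 members in every comparison, 13 genes of the wider list, and for each member the 3 genes with the highest Pearson r; other genes of the wider list were named where counts of calls were small.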

Additional observations from a re-analysis of the deposited data

Results flagged for a closer look

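In 48 groups of values (8 members and 4 ratios in 4 genotypes), 6 held 1 mouse far from the others by Dixon's ratio at the 95% level, where chance flags about 1 in 20 groups, or 2.4 here. WT replicate 3 accounted for 5 of them. Its log2 CPM was 5.11 for Daglb against 4.60 to 4.79 in the other WT mice, 7.72 for Mgll against 6.75 to 7.04, and 5.83 for Faah against 4.65 to 4.96. Its log2 ratio of Mgll to Abhd6 was 2.45 against 1.47 to 1.80, and that of Faah to Napepld was 2.55 against 1.39 to 1.86. The same mouse had the highest cortical neuron marker sum, 1139 CPM, whose part in these values was not tested. In KI-571, replicate 1 had a log2 CPM of 8.29 for Abhd12 against 7.89 to 7.93 in the other KI-571 mice.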

How the results depend on the processing

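Counts of members called were 0 of 8 in all 7 comparisons under every alternative run. Over 696 fits of a member against WT, the smallest adjusted p was 0.172 (Abhd6 in KI-FL without KI-FL replicate 1). An unadjusted p under 0.05 was reached in 15 of these fits, which reuse the same mice. In the main edgeR fits 7.45%, 7.72% and 16.7% of all genes reached it in KI-96, in KI-571 and in KI-FL. Log2 fold changes ranged from -0.53 to 0.44. The alternative without both WT replicate 3 and KI-FL replicate 4 was chosen after seeing the data.

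Directions turned, always for values that did not pass. With DESeq2 size factors Faah in KI-96 was 0.00034. With WT replicates 1 to 4 alone Abhd6 in KI-96 was -0.0091, Cnr1, Dagla and Mgll in KI-571 were -0.23, -0.030 and -0.075, and Dagla in KI-FL was -0.081. With WT replicates 5 to 7 alone Cnr1, Daglb, Mgll and Faah in KI-96 were 0.29, 0.033, 0.14 and 0.15, Faah in KI-571 was 0.071, and Cnr1 and Daglb in KI-FL were 0.15 and 0.037. With Xist as a covariate Mgll, Napepld and Abhd6 in KI-96 were 0.038, 0.078 and -0.012. Without both doubted mice Daglb, Mgll and Faah in KI-96 were 0.042, 0.15 and 0.18, Faah in KI-571 was 0.099 and Daglb in KI-FL was 0.097.

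Leaving out 1 mouse gave these ranges where a direction turned. In KI-96 they were -0.11 to 0.047 for Daglb (WT replicate 3 or KI-96 replicate 4), -0.12 to 0.14 for Mgll (WT replicate 3, KI-96 replicate 2 or 4), -0.11 to 0.18 for Faah (WT replicate 3, KI-96 replicate 1 or 2, KI-571 replicate 1), -0.37 to 0.0015 for Napepld (KI-96 replicate 1) and -0.015 to 0.047 for Abhd6 (WT replicate 5, KI-96 replicate 4). In KI-571 they were -0.089 to 0.13 for Cnr1 (WT replicates 4 to 7, KI-571 replicate 1), -0.056 to 0.18 for Mgll (WT replicate 1, 5 or 6, KI-571 replicate 1 or 2), -0.24 to 0.10 for Faah (WT replicate 3, KI-571 replicate 1) and -0.19 to 0.036 for Napepld (KI-571 replicate 1). In KI-FL the range was -0.081 to 0.036 for Daglb (WT replicate 3, KI-FL replicate 1 or 4). Where no direction turned, the ranges in KI-96 were -0.34 to -0.0019 for Cnr1, 0.088 to 0.30 for Dagla and 0.026 to 0.17 for Abhd12. In KI-571 they were 0.035 to 0.27 for Dagla, -0.15 to -0.00028 for Daglb, -0.16 to -0.083 for Abhd6 and 0.039 to 0.18 for Abhd12. In KI-FL they were -0.53 to -0.15 for Cnr1, 0.012 to 0.20 for Dagla, 0.10 to 0.29 for Mgll, -0.34 to -0.078 for Abhd6, 0.077 to 0.22 for Abhd12, -0.31 to -0.031 for Napepld and -0.38 to -0.061 for Faah.

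Same-numbered mice of different genotypes are different animals. Over 24 pairs their deviations correlated with r of -0.13 to 0.29 (median -0.0048), 5 of them over 0.1. Pairs with different numbers were not computed, so these values cannot decide whether a number marks a shared batch. With the replicate number as a block Abhd6 in KI-96 was -0.0035, Cnr1, Dagla and Mgll in KI-571 were -0.17, -0.032 and -0.050 and Dagla in KI-FL was -0.056. The block gave 0, 1, 0, 1, 9, 0 and 0 genes called.

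Counts of all genes called, the background of the member counts, moved widely. In the order KI-96, KI-571 and KI-FL against WT, KI-96 and KI-571 against KI-FL, KI-96 against KI-571 and all KI against WT, the counts were 5, 6, 36, 0, 16, 1 and 10. They were 28, 115, 509, 38, 88, 35 and 285 with DESeq2, 23, 78, 85, 24, 25, 35 and 140 with no filter, and 11, 29, 265, 9, 28, 4 and 124 at an adjusted p of 0.1. Without both doubted mice they were 1, 13, 19, 0, 9, 0 and 56. Elsewhere the counts that moved by over 1.5 times are given. With only the groups compared they were 0, 55 and 336 against WT, 2 for KI-96 against KI-FL and 9 for KI-96 against KI-571. With at least 10 counts in every mouse they were 0, 3 and 55 against WT and 0 for KI-96 against KI-571. With WT replicates 1 to 4 alone they were 0, 0 and 0 against WT, 10 for KI-571 against KI-FL, 2 for KI-96 against KI-571 and 0 for all KI. With WT replicates 5 to 7 alone they were 28 and 18 for KI-96 and KI-571 against WT, 15 for KI-96 against KI-FL, 8 for KI-96 against KI-571 and 49 for all KI. With Xist they were 0 for KI-96 and KI-FL against WT, KI-96 against KI-571 and all KI. Leaving out 1 mouse gave 1 to 10, 0 to 46, 0 to 159, 0 to 9, 1 to 21, 0 to 5 and 3 to 173. The cause of these moves was not tested. The lowest member had 85 reads in the mouse with fewest.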
